A study of Mus musculus with 22 samples.

Results

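The NOD receptors and the inflammasome genes were followed in murine bone marrow-derived macrophages (BMDM) as a set of 10 genes, namely Nod1, Nod2, Ripk2, Nlrp3, Nlrc4, Aim2, Pycard, Casp1, Casp4 and Gsdmd. They were chosen by name, as the genes to which the RefSeq accessions of 12 array probes belonged, and they were 10 of 22383 genes tested. Nlrp3 and Casp4 had a second probe each, of which the brighter one on average represents the gene here. All 264 values of the 12 probes (12 probes on 22 arrays) were well above background, and no spot of them was saturated or marked as an outlier.

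The study asked how the MAPKAP kinases MK2 and MK3, which act downstream of p38 MAPK, shape the transcript response of macrophages to lipopolysaccharide (LPS). Wild-type (wt), MK2-/- and MK2/3-/- animals, labelled as male C57BL/6 mice of 10 to 14 weeks, gave femoral bone marrow that was cultured for 9 days in the presence of M-CSF (10 ng/ml). The cells then received 100 ng/ml LPS in culture medium, or medium alone, for 360 min. Of the 22 arrays, wt BMDM gave 4 with medium and 3 with LPS, MK2-/- BMDM gave 4 and 4, and MK2/3-/- BMDM gave 3 and 4. No BMDM lacking MK3 alone were among these arrays, so the loss of MK3 was seen only on top of the loss of MK2, and only 1 LPS time was analysed here. The methods speak of independent experiments, while the labels do not say which arrays came from separate animals, so p-values measure the spread between these arrays.

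Nod1 and Nod2 are cytosolic receptors for fragments of bacterial peptidoglycan, and both signal through the kinase Ripk2 to NFκB and MAP kinases. Nlrp3, Nlrc4 and Aim2 are the sensors of inflammasomes: on activation they gather the adaptor Pycard (ASC) and the protease Casp1, which matures IL-1β and IL-18 and cleaves Gsdmd into a pore-forming fragment. Casp4 (mouse caspase-11) binds cytosolic LPS and cleaves Gsdmd directly. In macrophages, LPS sensed at the cell surface is known as the priming step that raises the transcripts of some of these proteins before any inflammasome is formed, and transcript levels say nothing of whether an inflammasome was formed.

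Promoter sequence is shown for the 3 genes in which a searched motif was found. RefSeq promoters (GRCm38.p6) were at hand for 8 of the 10 genes, with 11 annotated starts, and the 250 bases before each start were searched on both strands for the κB consensus, for the ISRE core (TTTC, any 2 bases, TTTC), for the GAS motif TTCNNNGAA and for the AP-1 motif TGANTCA. Of all 32851 RefSeq promoters, 7.25% held the κB consensus, 2.98% the ISRE core, 7.02% the GAS motif and 6.75% the AP-1 motif in the same window. Among the 8 genes, Casp4 and Nlrp3 held the κB consensus and Nod1 held the GAS motif, while the letters of the ISRE core and of AP-1 were in none of the 11 windows. Capitals mark the matches in the sequences, which run 5′ to 3′ towards the start of the gene. The stretches are chr9:5308599-5308848 on the plus strand for Casp4, chr11:59541319-59541568 on the plus strand for Nlrp3, and chr6:54971662-54971911 on the minus strand for Nod1.
Casp4: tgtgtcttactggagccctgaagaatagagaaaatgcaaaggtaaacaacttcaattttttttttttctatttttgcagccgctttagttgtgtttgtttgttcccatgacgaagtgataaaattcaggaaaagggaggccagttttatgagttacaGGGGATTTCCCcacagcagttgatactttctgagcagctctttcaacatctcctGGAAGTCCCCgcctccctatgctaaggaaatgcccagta
Nlrp3: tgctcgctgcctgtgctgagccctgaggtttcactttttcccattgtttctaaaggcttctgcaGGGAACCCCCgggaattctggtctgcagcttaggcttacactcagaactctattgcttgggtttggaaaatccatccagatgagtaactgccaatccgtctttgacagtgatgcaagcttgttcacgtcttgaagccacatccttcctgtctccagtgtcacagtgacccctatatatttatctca
Nod1: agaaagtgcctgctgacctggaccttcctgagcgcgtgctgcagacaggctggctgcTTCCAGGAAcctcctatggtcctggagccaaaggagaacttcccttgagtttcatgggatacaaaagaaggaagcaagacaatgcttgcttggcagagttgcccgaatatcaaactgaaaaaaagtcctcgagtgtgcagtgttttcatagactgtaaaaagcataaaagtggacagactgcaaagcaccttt
Casp4 had 3 matches, of which the 2 farther from the start, GGGGATTTCC and GGGATTTCCC, overlap by all but 1 base, and the nearer one, GGAAGTCCCC, began 39 bases before the start. The match in Nlrp3 began 186 bases and that in Nod1 193 bases before the start. A second annotated start of Casp4, 11 bases downstream, covers the same 3 matches, while the second starts of Nod1 and Nlrp3 had none. A match describes letters and is not a measured binding site.

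Some facts about the arrays bear on all results. Each genotype had a slide and a scan session of its own, so that genotype, slide and scan cannot be told apart wherever genotypes are compared at 1 treatment, whereas both treatments of a genotype shared a slide. Both MK2-/- replicate 3 arrays had low signal of Y-linked genes (mean log2 signal 2.07 and 2.33, against 6.86 or more on the other 20), which goes against their label as male, and the LPS array of the pair had 2927 marked spots where the other 21 had 115 to 261. On wt medium replicate 4 the genes that LPS induces in wt lay 0.41 (median, log2) above the group. Results are therefore also given without these 3 arrays where that changed a call. Mapkapk2, which encodes MK2, differed from wt under LPS by -3.28 (log2) in MK2-/- and by -3.87 in MK2/3-/- BMDM, and Mapkapk3, which encodes MK3, by -4.11 in MK2/3-/- BMDM. In medium Mapkapk2 differed from wt by -3.02 and -3.46, and Mapkapk3 by -1.97 in MK2/3-/- BMDM. All 7 macrophage markers tested, such as Adgre1, Csf1r and Cd14, were well above background on all 22 arrays, and in such a population a smaller share of cells with a transcript and less transcript per cell cannot be told apart.

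With LPS, 9 of the 10 genes rose in every genotype. Of the 10 genes, 9 rose in wt BMDM, 9 rose in MK2-/- BMDM, and in MK2/3-/- BMDM 9 rose and Nlrc4 fell. A change was called where the adjusted p of limma was below 0.05, adjusted by Benjamini-Hochberg over all 22383 genes. Calls were frequent among all genes: 42.1% of them were called in wt BMDM and 18.6% rose, 44.6% were called and 17.5% rose in MK2-/- BMDM, and 48.2% were called and 20.2% rose in MK2/3-/- BMDM, where 27.9% fell. The median log2 change of the 10 genes was 2.71 in wt, 2.76 in MK2-/- and 2.87 in MK2/3-/- BMDM, where the median over all genes was -0.04, -0.01 and 0.01. LPS and medium arrays did not overlap for 10, 8 and 10 of the 10 genes, as was so for 48.6%, 40.3% and 50.1% of all genes.

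**Figure D1:**
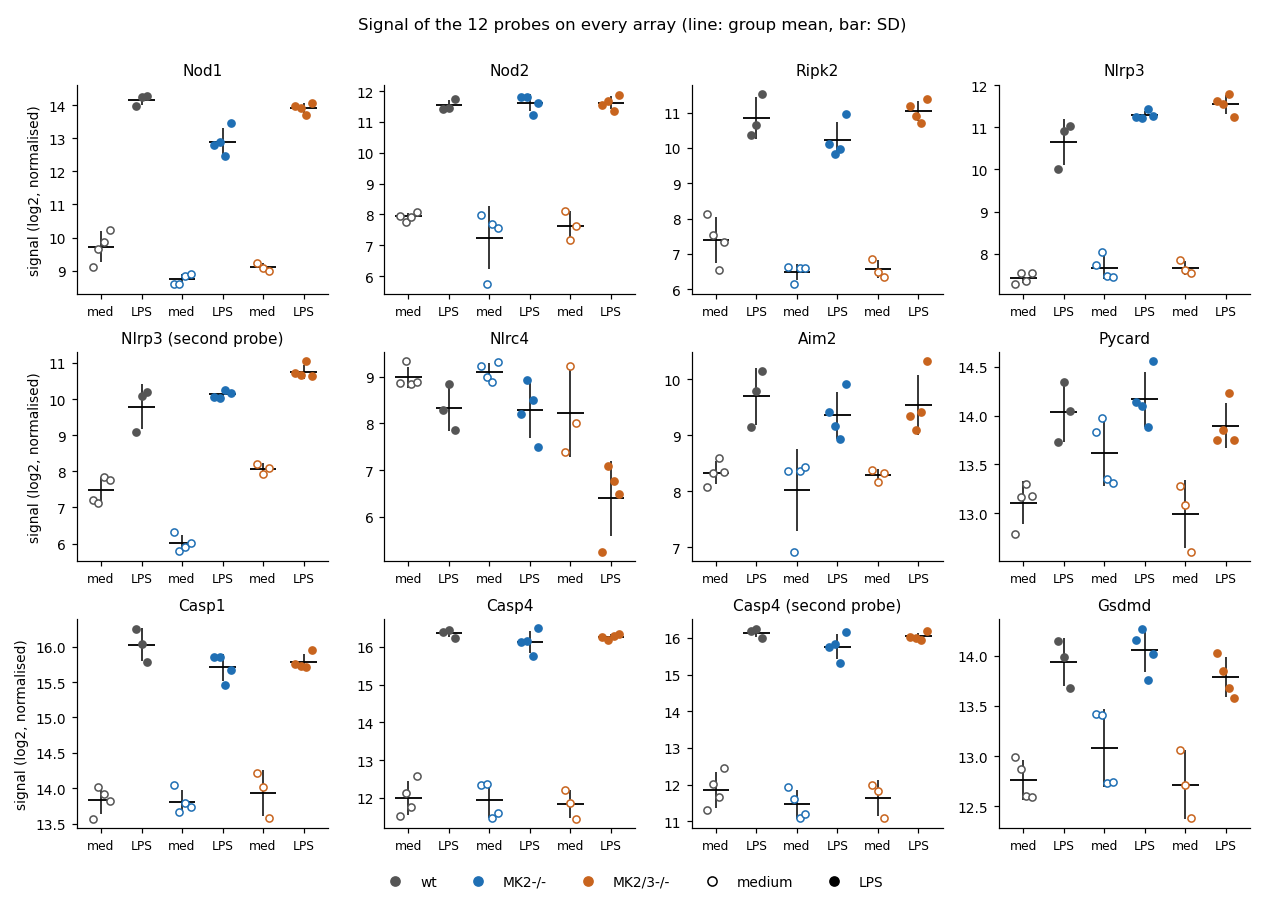
Normalised log2 signal (vertical axis, a different range in each panel) of the 12 probes on each of the 22 arrays, by genotype and treatment; points are arrays, lines group means and bars SDs. LPS arrays lie well above medium arrays for Nod1, Nod2, Ripk2, Nlrp3, Casp1 and Casp4, whereas Nlrc4 is lowest on the MK2/3-/- LPS arrays.

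Nod1 gave the largest response of the set in wt and MK2/3-/- BMDM, and it was the only gene of the set called between MK2-/- and wt BMDM. Its log2 signal in medium was 9.12, 9.65, 9.87 and 10.24 on the wt arrays, 8.61, 8.60, 8.83 and 8.90 on the MK2-/- arrays and 9.23, 9.08 and 8.99 on the MK2/3-/- arrays. With LPS it was 13.98, 14.26 and 14.27 in wt, 12.79, 12.88, 12.45 and 13.46 in MK2-/-, and 13.97, 13.92, 13.69 and 14.06 in MK2/3-/- BMDM. The 4 MK2-/- arrays were thus the lowest at each treatment, without overlap with either other genotype, and MK2/3-/- arrays overlapped with wt arrays at both treatments. The LPS response was 4.45 ± 0.23 (log2, SE, n = 3 and 4 arrays, 21.8-fold, limma, adjusted p = 2.5e-10) in wt, 4.16 ± 0.22 (17.9-fold, adjusted p = 4.89e-11) in MK2-/- and 4.82 ± 0.23 (28.2-fold, adjusted p = 3.88e-11) in MK2/3-/- BMDM.

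Nod2, the receptor for muramyl dipeptide, rose to nearly the same level in the 3 genotypes. With LPS its mean log2 signal was 11.53 ± 0.17 in wt (SD, 3 arrays), while MK2-/- BMDM had 11.62 ± 0.28 and MK2/3-/- BMDM 11.62 ± 0.22 (SD, 4 arrays each). In medium the wt arrays lay between 7.77 and 8.08, while the MK2-/- arrays had 8.0, 5.73, 7.70 and 7.55, so that replicate 2 stood apart below the other 3. The LPS response was 3.60 ± 0.37 in wt, 4.38 ± 0.34 in MK2-/- and 3.98 ± 0.37 in MK2/3-/- BMDM (log2, SE), which is 12.1-, 20.8- and 15.8-fold, with adjusted p of 3.18e-07, 4.77e-09 and 4.85e-08. Without MK2-/- medium replicate 2, the difference of the response between MK2-/- and wt went from 0.78 to 0.28.

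Ripk2, the kinase that both NOD receptors use, rose 11.0-fold in wt (3.46 ± 0.34, log2, SE), 13.3-fold in MK2-/- (3.73 ± 0.31) and 22.3-fold in MK2/3-/- BMDM (4.48 ± 0.34), with adjusted p of 1.68e-07, 1.17e-08 and 3.46e-09. The spread in wt medium was wide, with 8.12, 7.55, 6.55 and 7.34 on its arrays, against 6.13 to 6.62 in MK2-/- and 6.36 to 6.86 in MK2/3-/- medium. With LPS the arrays ran from 10.37 to 11.53 in wt, from 9.82 to 10.96 in MK2-/- and from 10.71 to 11.38 in MK2/3-/- BMDM, and all these ranges overlapped.

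Among the sensors, Nlrp3 and Aim2 rose in every genotype, Nlrp3 by more, and Nlrc4 fell in MK2/3-/- BMDM. Nlrp3, the sensor that responds to potassium efflux and other signs of cell damage, had a log2 signal in medium of 7.27, 7.54, 7.36 and 7.54 in wt, 7.73, 8.04, 7.48 and 7.44 in MK2-/-, and 7.84, 7.62 and 7.54 in MK2/3-/- BMDM. With LPS it had 10.02, 10.92 and 11.02 in wt, 11.24, 11.22, 11.44 and 11.27 in MK2-/-, and 11.62, 11.54, 11.79 and 11.25 in MK2/3-/- BMDM. The 3 wt arrays were the lowest with LPS and wt replicate 1 lay below its group. The response was 3.23 ± 0.21 (log2, SE, 9.36-fold, adjusted p = 1.56e-09), 3.62 ± 0.20 (12.3-fold, adjusted p = 6.8e-11) and 3.88 ± 0.21 (14.8-fold, adjusted p = 1.03e-10) in wt, MK2-/- and MK2/3-/- BMDM. The second probe, described below, gave 2.31, 4.12 and 2.69.

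Aim2, which binds DNA in the cytosol, rose by 1.36 ± 0.36 (2.57-fold, adjusted p = 0.0045), 1.34 ± 0.33 (2.52-fold, adjusted p = 0.00243) and 1.25 ± 0.36 (2.38-fold, adjusted p = 0.00657) on the log2 scale (SE) in wt, MK2-/- and MK2/3-/- BMDM. Its LPS arrays reached from 9.14 to 10.16 in wt, from 8.94 to 9.92 in MK2-/- and from 9.10 to 10.33 in MK2/3-/- BMDM, so that the genotypes covered nearly the same range. In medium the arrays lay between 8.09 and 8.59, except for MK2-/- replicate 2 at 6.93.

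Nlrc4, which assembles with NAIP proteins that recognise flagellin and type III secretion proteins, was not called with LPS in wt or MK2-/- BMDM and fell in MK2/3-/- BMDM. Its log2 signal was 8.88, 9.33, 8.86 and 8.88 in wt medium and 8.28, 8.85 and 7.87 in wt with LPS. In MK2-/- BMDM it was 9.22, 9.00, 8.89 and 9.32 in medium and 8.21, 8.93, 8.51 and 7.49 with LPS, and in MK2/3-/- BMDM 7.39, 9.23 and 8.02 in medium and 5.25, 7.10, 6.76 and 6.48 with LPS. The 4 MK2/3-/- LPS arrays were the lowest of all 22, and the MK2/3-/- medium arrays had the widest spread of any group for this gene (SD 0.94, n = 3). The LPS response was -0.65 ± 0.43 (log2, SE, adjusted p = 0.245) in wt, -0.82 ± 0.40 (adjusted p = 0.105) in MK2-/- and -1.82 ± 0.43 (3.52-fold lower, adjusted p = 0.00162) in MK2/3-/- BMDM. The last was not called by the methods' t-test after adjustment (adjusted p = 0.0866).

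The adaptor and the effectors rose in each genotype. Pycard was bright in medium and had the smallest called changes: it rose 1.91-fold in wt (0.93 ± 0.23, log2, SE, adjusted p = 0.00282), 1.46-fold in MK2-/- (0.55 ± 0.21, adjusted p = 0.0414) and 1.87-fold in MK2/3-/- BMDM (0.91 ± 0.23, adjusted p = 0.00272). On the MK2-/- arrays Pycard had 13.83, 13.98, 13.35 and 13.31 in medium and 14.14, 14.10, 13.88 and 14.56 with LPS, so that the groups overlapped. This call was lost without both MK2-/- replicate 3 arrays (0.56, adjusted p = 0.0769), and when wt medium replicate 4 was also left out (adjusted p = 0.0895). It was also lost on leaving out MK2-/- LPS replicate 1, 2 or 4, or MK2-/- medium replicate 3 or 4, with adjusted p from 0.0587 to 0.145. The size of the rise depended on the processing. Over all alternatives it ran from 0.42 to 1.31 (log2) in MK2-/- BMDM. In wt it ran from 0.78 to 1.56, and in MK2/3-/- BMDM from 0.71 to 1.56.

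Casp1, the protease of the canonical inflammasome, rose 4.56-fold in wt (2.19 ± 0.18, log2, SE, adjusted p = 1.53e-08), 3.72-fold in MK2-/- (1.89 ± 0.16, adjusted p = 1.68e-08) and 3.60-fold in MK2/3-/- BMDM (1.85 ± 0.18, adjusted p = 6.98e-08). Its group means in medium were 13.83 ± 0.19, 13.81 ± 0.16 and 13.94 ± 0.32 (log2, SD, n = 4, 4 and 3), and with LPS 16.02 ± 0.23, 15.71 ± 0.19 and 15.78 ± 0.11 (n = 3, 4 and 4). Both the medium and the LPS arrays of the genotypes overlapped.

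Casp4 stood with Nod1 and Nod2 among the 3 largest responses in wt and MK2-/- BMDM. In wt BMDM its log2 signal went from 11.52, 12.13, 11.75 and 12.57 in medium to 16.40, 16.45 and 16.23 with LPS. In MK2-/- BMDM it went from 12.34, 12.36, 11.47 and 11.61 to 16.12, 16.17, 15.76 and 16.49, and in MK2/3-/- BMDM from 12.20, 11.86 and 11.44 to 16.25, 16.18, 16.27 and 16.35. Every LPS array lay more than 3 log2 units above every medium array. The response was 4.37 ± 0.26 (20.7-fold, adjusted p = 6.43e-10), 4.19 ± 0.25 (18.2-fold, adjusted p = 1.33e-10) and 4.43 ± 0.26 (21.6-fold, adjusted p = 2.31e-10), and the second probe gave 4.28, 4.30 and 4.41. The stretch before its start is the one with 3 partly overlapping matches to the κB consensus, and Nod1 and Nod2 had none in the windows searched. Whether such matches bear on the responses was not tested.

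Gsdmd, whose cleaved fragment forms the membrane pore of pyroptosis, rose 2.25-fold in wt (1.17 ± 0.22, log2, SE, adjusted p = 0.00026), 1.96-fold in MK2-/- (0.97 ± 0.20, adjusted p = 0.000541) and 2.09-fold in MK2/3-/- BMDM (1.07 ± 0.22, adjusted p = 0.000451). Its arrays with LPS reached from 13.67 to 14.14 in wt, from 13.76 to 14.27 in MK2-/- and from 13.58 to 14.03 in MK2/3-/- BMDM, all above the highest medium array of their genotype. Over all alternatives in the processing the response (log2) ran from 1.07 to 1.74 in wt BMDM. It ran from 0.86 to 1.64 in MK2-/- and from 0.90 to 1.67 in MK2/3-/- BMDM.

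**Figure D2:**
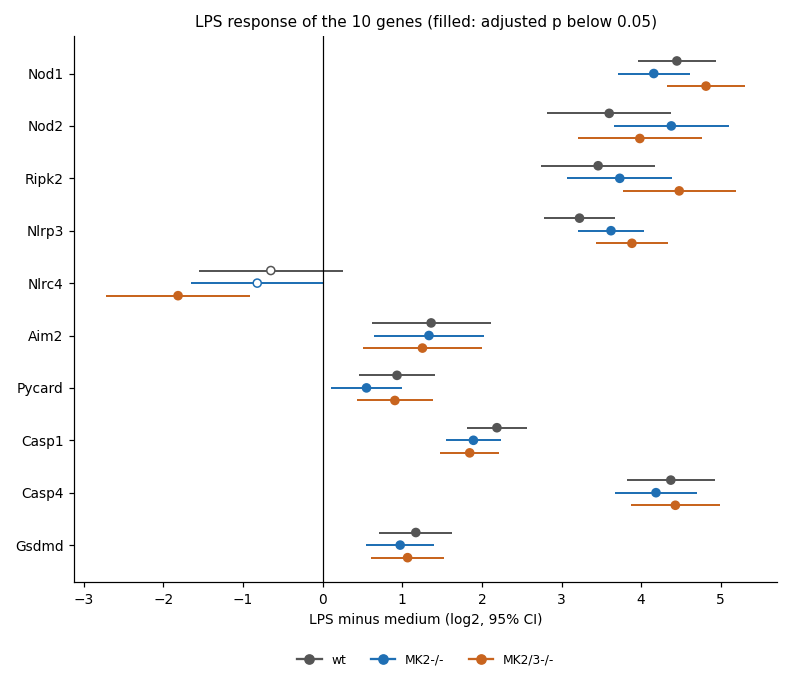
LPS minus medium (log2, points, with 95% confidence intervals) of the 10 genes in wt, MK2-/- and MK2/3-/- BMDM; filled points have an adjusted p below 0.05. The intervals of the 3 genotypes overlap for every gene, and Nlrc4 is the only gene left of 0.

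Whether the kinases alter the response itself is asked by the difference of LPS responses, in which a constant effect of the slide cancels. None of the 10 genes was called in any of the 3 such comparisons. For MK2-/- against wt BMDM, limma called 0 of all 22383 genes (0%), with 7.53% at an unadjusted p below 0.05 and 0 of the 10 genes among them. For MK2/3-/- against wt BMDM 152 genes (0.679%) were called, with 11.4% at an unadjusted p below 0.05, and for MK2/3-/- against MK2-/- BMDM 15 (0.067%), with 8.6% and 0 of the 10 genes. At an unadjusted p below 0.05 were Ripk2, whose response was larger in MK2/3-/- than in wt by 1.02 (log2, 95% CI 0.01 to 2.03, unadjusted p = 0.0478, adjusted p = 0.431), and Nlrp3, larger by 0.66 (0.02 to 1.29, unadjusted p = 0.0432, adjusted p = 0.415). For Nod1 the MK2-/- response differed from that of wt by -0.29 (95% CI -0.96 to 0.38, adjusted p = 0.868). For Nlrc4 the MK2/3-/- response differed from that of wt by -1.17 (-2.44 to 0.11, adjusted p = 0.501) and from that of MK2-/- by -0.99 (-2.22 to 0.23, adjusted p = 0.694). With each array scaled to its 75th percentile in place of quantile normalisation, the difference of 1.02 for Ripk2 was 0.33 and that of 0.66 for Nlrp3 was 0.05. Without wt LPS replicate 1 the difference for Nlrp3 was 0.34 (adjusted p = 0.698). Casp1 had the narrowest intervals, with -0.30 (-0.80 to 0.21) for MK2-/- against wt and -0.34 (-0.87 to 0.18) for MK2/3-/- against wt. Each interval gives the range of differences compatible with these arrays, and it is not a limit of detection.

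**Figure D3:**
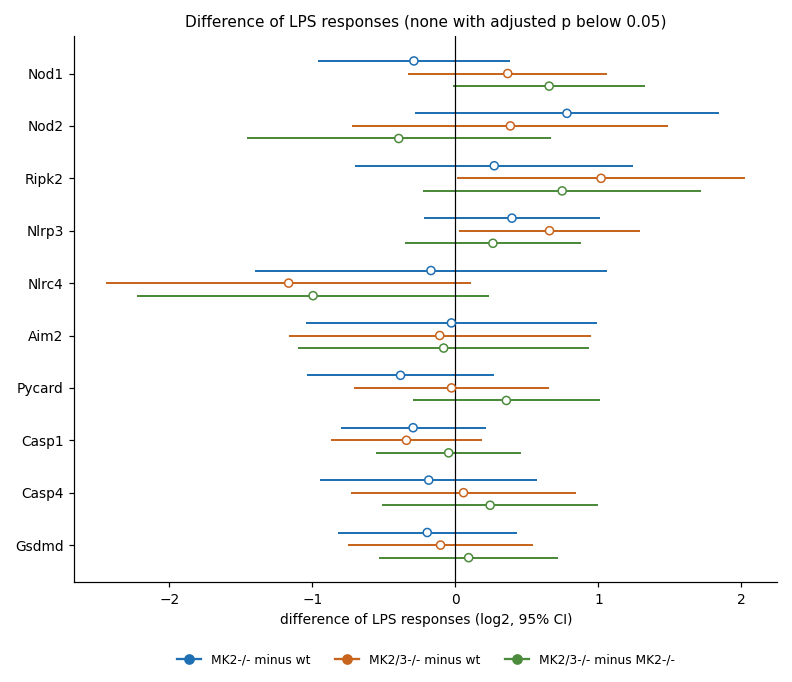
Difference of LPS responses between genotypes (log2, points, with 95% confidence intervals) for the 10 genes; open points have an adjusted p of 0.05 or more. All points are open, and the intervals are widest for Nlrc4 and narrowest for Casp1.

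Genotypes were then compared at the same treatment, where genotype and slide cannot be told apart. With LPS, MK2-/- BMDM differed from wt in 1 of the 10 genes (11.6% of all genes were called), MK2/3-/- BMDM differed from wt in 2 (23.6%) and from MK2-/- BMDM in 2 (13.5%). In medium, 1 gene was called for MK2-/- against wt (8.82%), 0 for MK2/3-/- against wt (2.02%) and 0 for MK2/3-/- against MK2-/- BMDM (2.82%). At an unadjusted p below 0.05 in limma, the latter pair of comparisons held 2 of the 10 genes, Nod1 and Ripk2 (16.9% of all genes), and 1, Pycard (15%). The methods' t-test gave 0 and 1 of the 10 genes at that unadjusted threshold, and the 1 gene was Nod1 (unadjusted p = 0.0203), not Pycard. The shares of the 10 genes called after adjustment lie near those of all genes, and the genes called were Nod1, Nlrp3 and Nlrc4.

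Nod1 was lower in MK2-/- than in wt BMDM (-1.27 ± 0.23, log2, SE, 2.42-fold lower, adjusted p = 0.00397) with LPS and also (-0.98 ± 0.22, 1.98-fold lower, adjusted p = 0.0116) in medium, as the values on each array show. It was higher in MK2/3-/- than in MK2-/- BMDM with LPS by 1.02 ± 0.22 (2.03-fold, adjusted p = 0.0043), whereas MK2/3-/- and wt BMDM were not called apart, with -0.26 (95% CI -0.75 to 0.24, adjusted p = 0.456) under LPS and -0.62 (-1.11 to -0.13, adjusted p = 0.174) in medium, where array weights made it a call (-0.73, limma, adjusted p = 0.0278). The order of mean levels was wt, MK2/3-/-, MK2-/- at both treatments, and in the fit of all arrays with equal weight the neighbours wt and MK2/3-/- were not told apart at either, nor were MK2/3-/- and MK2-/- in medium (0.36, 95% CI -0.13 to 0.85, adjusted p = 0.521). The size of the difference between MK2-/- and wt in medium was thus close to that with LPS, and the test of their difference is the -0.29 given for the response. The study chose Nod1 for RT-qPCR after its arrays of both LPS times, of which the later is the one here. The pattern here is therefore not counted as independent evidence. By RT-qPCR the study reports less Nod1 without MK2, at least partly restored without both kinases, and no significant impairment without MK3 alone. All these array calls for Nod1 remained without both MK2-/- replicate 3 arrays, with -1.13 (adjusted p = 0.0113) and -1.02 (adjusted p = 0.0183) against wt and 0.87 (adjusted p = 0.0188) between the deficient genotypes. With the methods' t-test on the same values none of them passed after Benjamini-Hochberg adjustment (adjusted p from 0.0712 to 0.0797), while all passed unadjusted. Markers of other cells also differed between MK2-/- and wt in medium, where 1 of 7 macrophage (Itgam), 1 of 3 T cell (Cd3e) and 1 of 5 B cell markers (Cd79a) were higher and 1 B cell marker (Pax5) was lower. Of all genes, 8.82% were called in that comparison. Of the fibroblast markers 0 of 4 were called there, with a median difference of -1.26 (log2). Their summed linear signal spread widely between arrays, from 3047 to 103034 in wt and from 1494 to 26312 in MK2-/- medium. The summed linear signal of the T cell markers was 872 to 1622 in wt and 2134 to 4895 in MK2-/- medium, and 1950 to 2850 and 3537 to 5096 with LPS, where 0 markers of any list were called between these genotypes (11.6% of all genes were). In the T cell sum Cd3e dominates (mean log2 signal 11.20, against 6.23 for Cd247 and 4.27 for Cd3d), so it mostly restates that marker. The part of such cells in the result for Nod1 was not tested.

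The mean of Ripk2 was also lowest in MK2-/- BMDM at both treatments, but it was not called between genotypes in the fit of all arrays. With LPS MK2-/- minus wt was -0.63 (95% CI -1.35 to 0.08, adjusted p = 0.221) and MK2/3-/- minus MK2-/- was 0.83 (0.17 to 1.49, adjusted p = 0.0888). In medium the differences from wt were -0.90 (-1.56 to -0.25, adjusted p = 0.0787) for MK2-/- and -0.82 (-1.54 to -0.11, adjusted p = 0.216) for MK2/3-/- BMDM. These values moved with the processing. With array weights MK2-/- minus wt under LPS was called (-0.92, limma, adjusted p = 0.0315), and over all alternatives it lay between that and -0.29 (adjusted p = 0.642). MK2/3-/- minus MK2-/- under LPS was called with normexp background correction (0.79, adjusted p = 0.0405) and without MK2-/- LPS replicate 4 (1.08, adjusted p = 0.0314), and MK2-/- minus wt in medium without wt medium replicate 3 (-1.18, adjusted p = 0.0306). By the methods' t-test both of the latter differences passed before adjustment (unadjusted p = 0.0311 and 0.0397). Nod2, the other receptor that signals through Ripk2, differed by 0.09 under LPS for MK2-/- (95% CI -0.69 to 0.87, adjusted p = 0.898) and for MK2/3-/- against wt (-0.69 to 0.87, adjusted p = 0.89).

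Nlrp3 was higher in MK2/3-/- than in wt BMDM with LPS by 0.90 ± 0.21 (log2, SE, 1.86-fold, adjusted p = 0.00605). Between MK2-/- and wt the difference of 0.64 (95% CI 0.19 to 1.09, 1.56-fold) just missed the threshold (adjusted p = 0.0583), although the arrays did not overlap. Without wt LPS replicate 1, the lowest of the wt arrays, this difference was 0.32 (adjusted p = 0.316), and without wt LPS replicate 3 or MK2-/- medium replicate 2 it was called (0.82, adjusted p = 0.0468, and 0.64, adjusted p = 0.0467). The call between MK2/3-/- and wt was kept in the fit without each single array and without the arrays in doubt. Without wt LPS replicate 1 it was 0.58 (adjusted p = 0.0479). It was not called when only the wt and MK2/3-/- LPS arrays entered the fit (adjusted p = 0.106), or by the methods' t-test after adjustment (adjusted p = 0.153).

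The 2 probes of Nlrp3 disagreed in medium. The second probe had 7.21, 7.12, 7.84 and 7.75 on the wt medium arrays, 6.32, 5.80, 5.90 and 6.01 on the MK2-/- medium arrays and 8.22, 7.92 and 8.09 on the MK2/3-/- medium arrays, and these 3 groups did not overlap. In a fit of all 28103 probes, its signal was lower in MK2-/- medium than in wt medium (-1.48 ± 0.22, log2, SE, 2.78-fold, adjusted p = 0.00176, 7.9% of probes called) and higher in MK2/3-/- than in MK2-/- medium by 2.07 ± 0.24 (4.20-fold, adjusted p = 0.000118, 2.68% of probes called). The probe that stood for the gene gave 0.24 (adjusted p = 0.459) and -0.01 (adjusted p = 0.994) in the same comparisons.

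With LPS the second probe had 9.07, 10.09 and 10.21 in wt, 10.07, 10.02, 10.26 and 10.16 in MK2-/- and 10.72, 10.66, 11.04 and 10.62 in MK2/3-/- BMDM. There it went with the other probe: MK2/3-/- exceeded wt by 0.97 ± 0.24 (adjusted p = 0.00748, where 23.7% of probes were called) and MK2-/- exceeded wt by 0.34 (adjusted p = 0.368). Its LPS response was 2.31 in wt, 4.12 in MK2-/- and 2.69 in MK2/3-/- BMDM, and the difference of responses was 1.81 (95% CI 1.12 to 2.51, unadjusted p = 2.83e-05, adjusted p = 0.0954) for MK2-/- against wt and -1.44 (-2.13 to -0.74, unadjusted p = 0.000357, adjusted p = 0.143) for MK2/3-/- against MK2-/-. Of all probes 0%, 0.979% and 0.0676% were called in the comparisons of responses (MK2-/- against wt, MK2/3-/- against wt, MK2/3-/- against MK2-/-). Both probes carry the same RefSeq accession, the probes' sequences were not used here, and which of them follows the transcript in medium was not tested. Of the marker lists, 1 of 5 B cell markers (Pax5) was higher in MK2/3-/- than in MK2-/- medium (2.82% of all genes were called there), and the part of this and of the markers given for Nod1 in medium was not tested.

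**Figure D4:**
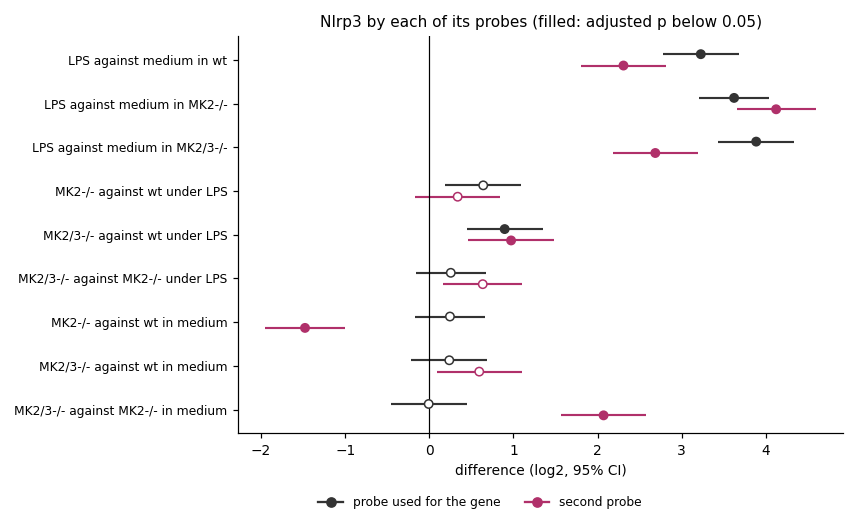
Differences (log2, points, with 95% confidence intervals) of Nlrp3 by the probe that stood for the gene and by its second probe in the 9 comparisons of groups; filled points have an adjusted p below 0.05 over all probes. Both probes rise with LPS in each genotype, with intervals that do not overlap in MK2/3-/- BMDM (3.43 to 4.33 and 2.18 to 3.19). They part most in the comparisons of MK2-/- medium arrays with wt and MK2/3-/- medium arrays.

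With LPS, Nlrc4 was lower in MK2/3-/- BMDM than in wt BMDM (-1.94 ± 0.43, log2, SE, 3.83-fold lower, adjusted p = 0.00369) and than in MK2-/- BMDM (-1.89 ± 0.40, 3.70-fold lower, adjusted p = 0.00391). MK2-/- and wt differed by -0.05 (95% CI -0.95 to 0.85, adjusted p = 0.955). In medium the MK2/3-/- mean was also the lowest, by -0.77 (-1.67 to 0.13, adjusted p = 0.375) against wt and -0.89 (-1.79 to 0.01, adjusted p = 0.339) against MK2-/-, and neither was called. Both calls with LPS were kept without each single array, and in the fit of only the wt and MK2/3-/- LPS arrays the first was not called (adjusted p = 0.0526). The methods' t-test after adjustment called neither (adjusted p = 0.117 and 0.12). Of the 5 dendritic cell markers, Xcr1 was well above background on the 4 MK2/3-/- LPS arrays and on no other array, so that it entered the test through them alone; it was at least 4.12-fold higher there than in wt and at least 4.71-fold higher than in MK2-/- BMDM with LPS and is not counted here. Of the other 4, Clec9a was higher in MK2/3-/- than in wt BMDM with LPS by 2.98 (log2), and Clec9a by 2.90 and Flt3 by 1.60 than in MK2-/- BMDM, Clec9a being well above background on 1 of the 3 wt and 2 of the 4 MK2-/- LPS arrays. The summed linear signal of the 5 was 60443 to 75082 on the MK2/3-/- LPS arrays, 47753 to 70856 in wt and 45753 to 79968 in MK2-/- BMDM, a sum in which Siglech (mean log2 signal 16.20) dominates. In these comparisons with LPS, 23.6% (MK2/3-/- against wt) and 13.5% (MK2/3-/- against MK2-/-) of all genes were called. Of the other marker lists, 1 of 5 B cell markers was higher than in wt, and 2 of 5 B cell and 1 of 5 neutrophil markers were higher than in MK2-/- BMDM with LPS, while 0 of 7 macrophage, 0 of 3 T cell and 0 of 4 fibroblast markers were called in either comparison. The part of such cells in the results for Nlrc4, Nlrp3 and Nod1 was not tested.

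Pycard, Casp1, Casp4, Gsdmd and Aim2 were not called between genotypes at either treatment. With LPS, Casp4 differed by -0.23 (95% CI -0.79 to 0.32) for MK2-/- and -0.10 (-0.66 to 0.45) for MK2/3-/- against wt, and Casp1 by -0.32 (-0.69 to 0.06) and -0.24 (-0.61 to 0.13). Gsdmd gave 0.12 (-0.34 to 0.58) and -0.15 (-0.61 to 0.31), and Aim2 -0.34 (-1.08 to 0.41) and -0.15 (-0.90 to 0.59). With scaling to the 75th percentile, Casp1 differed with LPS by -0.55 for MK2-/- against wt (limma, adjusted p = 0.0549). For Pycard in medium, MK2-/- minus wt was 0.51 (95% CI 0.07 to 0.96, adjusted p = 0.134) and MK2/3-/- minus MK2-/- was -0.63 (-1.11 to -0.15, adjusted p = 0.172), both without overlap of the arrays. The former was 0.19 with that scaling (limma, adjusted p = 0.585), and it passed the methods' t-test only before adjustment (unadjusted p = 0.0439). Arrays of the genotypes did not overlap for 2, 2 and 2 of the 10 genes under LPS (MK2-/- against wt, MK2/3-/- against wt, MK2/3-/- against MK2-/-), where 26.1%, 28.2% and 13.3% of all genes did not, and for 2, 0 and 2 in medium, against 20.6%, 23.8% and 17.8%.

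**Figure D5:**
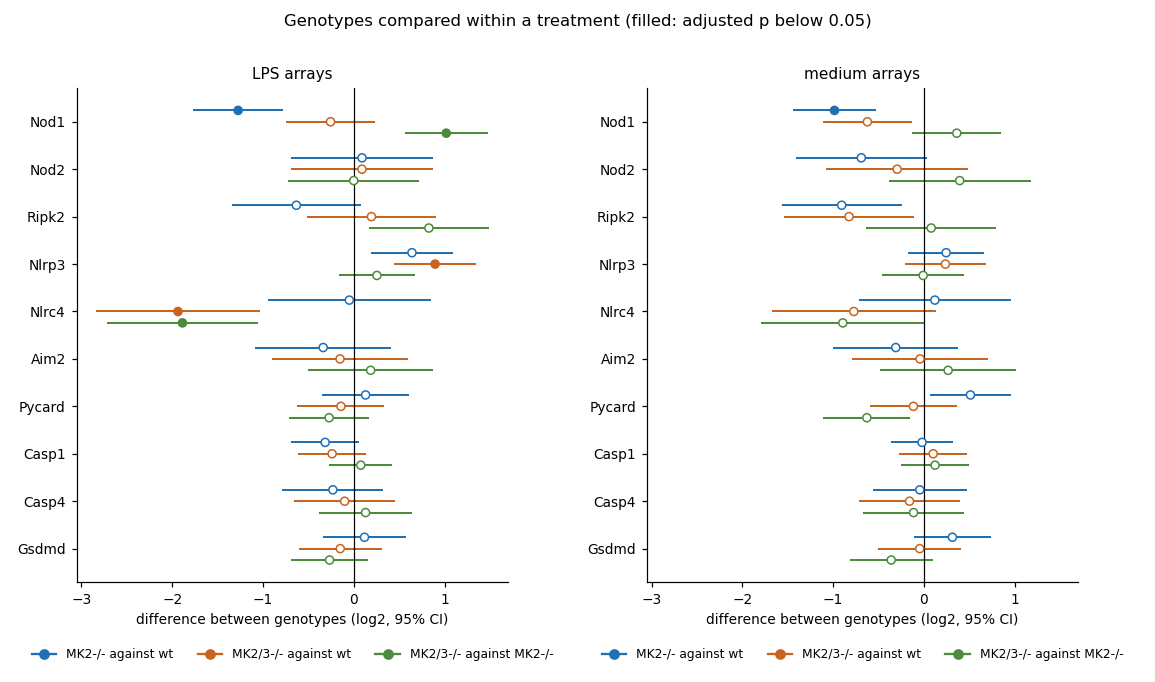
Differences between genotypes (log2, points, with 95% confidence intervals) of the 10 genes on LPS arrays (left) and medium arrays (right); filled points have an adjusted p below 0.05. Filled points are those of Nod1, Nlrp3 and Nlrc4 with LPS and of Nod1 in medium.

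The genes around the set were described by 5 lists, beginning with the other sensors. Their counts stand beside those of all genes, of which 18.6%, 17.5% and 20.2% rose with LPS in wt, MK2-/- and MK2/3-/- BMDM. In the same order, 42.1%, 44.6% and 48.2% of all genes were called, and the shares called between genotypes are those given above. Of 17 other NLR and inflammasome sensors, 16 were tested, and in wt BMDM 7 rose and 2 fell with LPS; in MK2-/- BMDM 4 rose and 4 fell, and in MK2/3-/- BMDM 6 rose and 3 fell. The highest rises in wt were seen for Zbp1 (4.66 ± 0.45, log2, SE, 25.3-fold), a sensor of Z-form nucleic acid, and Nlrc5 (4.31 ± 0.26, 19.9-fold), a transactivator of MHC class I genes, and the falls were those of Nlrp10 (-3.25 ± 0.31) and Nlrp1b (-2.91 ± 0.39), the sensor of anthrax lethal toxin. Zbp1 rose by 4.96 and 4.93 in MK2-/- and MK2/3-/- BMDM. Naip1, which hands a type III secretion protein to Nlrc4, was lower in MK2-/- than in wt BMDM with LPS (-1.70 ± 0.44, adjusted p = 0.0207) and higher in MK2/3-/- than in MK2-/- BMDM by 1.55 ± 0.41 (adjusted p = 0.0163). Naip genes are near-identical copies, and a probe of one may read another. Nlrp10 was lower in MK2/3-/- than in wt BMDM with LPS by at least 1.32-fold (adjusted p = 0.0341), and the remaining call between genotypes in the list was Naip2, with -0.48 (adjusted p = 0.0422) in that comparison and named after its value was seen.

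Of 22 genes for the transport of NOD ligands and for signalling from NOD receptors through Ripk2, 9 rose and 5 fell in wt, 12 rose and 6 fell in MK2-/-, and 9 rose and 5 fell in MK2/3-/- BMDM. Birc3, a ubiquitin ligase that acts on Ripk2, rose by 3.05 ± 0.17 (8.27-fold) in wt, and Atg16l1, an autophagy protein, by 2.91 ± 0.35 (7.52-fold). Slc46a3, of a family of transporters of muropeptides, fell in each genotype (-4.38 ± 0.39 in wt, which is 20.8-fold lower, -5.33 in MK2-/- and -4.13 in MK2/3-/- BMDM). Tab1, a partner of the kinase TAK1, fell by 2.35 ± 0.23 in wt and was lower with LPS in both deficient genotypes than in wt, with -0.78 ± 0.23 (adjusted p = 0.0367) in MK2-/- and -1.62 ± 0.23 (adjusted p = 0.000149) in MK2/3-/- BMDM. Card9, an adaptor for Nod2 and for C-type lectin receptors, was higher in MK2-/- than in wt medium by 1.56 ± 0.37 (adjusted p = 0.0175), and was lower in MK2/3-/- than in MK2-/- BMDM in medium (-2.40 ± 0.40, adjusted p = 0.0022) and with LPS (-1.38 ± 0.37, adjusted p = 0.0199). The other calls between genotypes in the list, named after their values were seen, were Birc2, higher in MK2/3-/- than in wt BMDM with LPS by 0.95, and Tab1, lower in MK2/3-/- than in MK2-/- BMDM with LPS (-0.84).

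Of 12 inhibitors of NOD or inflammasome signalling, 8 rose and 1 fell in wt, 7 rose and 2 fell in MK2-/-, and 8 rose and 2 fell in MK2/3-/- BMDM. Their median change in wt, 3.01, was the highest of the 5 lists. Il1rn, the antagonist of the IL-1 receptor, rose by 6.57 ± 0.57 (log2, SE) in wt and by 8.08 in MK2-/- BMDM, and Ifi213, listed under an older symbol, by 6.10 ± 0.66 in wt and 7.82 in MK2/3-/- BMDM. Cyld, a deubiquitinase, fell by 2.20 ± 0.26 in wt. Between genotypes, Ifi208, also listed under an older symbol, was lower in MK2-/- than in wt BMDM with LPS (-1.73 ± 0.34, adjusted p = 0.00552), Ifi213 was at least 2.55-fold lower in MK2-/- than in wt medium (adjusted p = 0.0457), and Serpinb1a, an inhibitor of neutrophil proteases and caspases, was higher in MK2/3-/- than in MK2-/- BMDM with LPS by 1.98 ± 0.54 (adjusted p = 0.0203), as was Ifi208, by 0.99 (adjusted p = 0.043). The Ifi200 genes are a family of like copies, so these probes may read more than their own gene.

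Of 13 regulators and partners of inflammasomes, 7 rose and 4 fell in wt, 7 rose and 4 fell in MK2-/-, and 6 rose and 3 fell in MK2/3-/- BMDM, and 0 were called between genotypes at either treatment. Gbp5 and Gbp2, guanylate-binding proteins that act on LPS and on vacuoles, rose by 6.66 ± 0.60 (101-fold) and 6.29 ± 0.59 (78.2-fold) in wt, and Gbp5 by 7.40 and 7.84 in MK2-/- and MK2/3-/- BMDM. P2rx7, the ATP-gated channel that triggers Nlrp3, fell by 3.99 ± 0.48 (15.9-fold lower) in wt, and Txnip, which binds thioredoxin, also fell (-3.06 ± 0.58). Of 8 substrates and genes of cell rupture, 4 rose and 2 fell in wt, 4 rose and 2 fell in MK2-/-, and 5 rose and 2 fell in MK2/3-/- BMDM. Il1b, the main substrate of Casp1, rose by 6.75 ± 0.75 (108-fold) in wt, and Il1a by 8.12 ± 0.84 in wt and 11.63 ± 0.77 in MK2-/- BMDM. In MK2/3-/- BMDM, whose medium arrays were not well above background for Il1a, the rise was at least 3140-fold. For Il1a in medium, MK2-/- minus wt was -2.95 ± 0.77 (adjusted p = 0.0262), with overlapping arrays, and MK2/3-/- BMDM were at least 9.05-fold lower than wt (adjusted p = 0.0271). Gsdme, another gasdermin, fell in wt (-1.68 ± 0.37), as did Hmgb1, a nuclear protein released from dying cells (-1.12 ± 0.38).

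Across the 22 arrays the 10 genes fell into 9 that moved together and Nlrc4. Pearson's r over the arrays was between 0.59 and 0.98 for the 36 pairs among the 9, and between -0.64 and -0.29 for Nlrc4 with each of them. These values describe arrays that share treatment, slide and normalisation. The genes most like each member were Fam241a and Phf11c for Nod1 (r = 0.987 for both), Nlrc5 and Rlim for Nod2 (0.990 for both), Golga3 and Aida for Ripk2 (0.987 and 0.981), and Oas3 and Osm for Nlrp3 (0.991 and 0.990). They were Ccnc and Brwd3 for Aim2 (0.953 and 0.951), Stfa3 and Btbd10 for Pycard (0.916 and 0.908), Nmi and Irgm2 for Casp1 (0.991 and 0.990), Ddx58 and Trex1 for Casp4 (0.995 for both), and Idnk and Ccl9 for Gsdmd (0.964 and 0.958). The likeness was lowest for Nlrc4, with Dnase1l2 (0.906) and Gm9958 (0.888).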

How the data were processed

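RNA of 22 BMDM cultures was hybridised to 1-colour Agilent arrays of 62976 spots. Per the file headers, the authors scanned each array and extracted a background-subtracted processed intensity per spot with Agilent Feature Extraction 11.0.1.1. Per the labels and methods, the deposited log2 table held the same arrays after quantile normalisation in GeneSpring GX, centred on the median of all samples. It followed the scanner values with r from 0.9932 to 0.999 and slopes from 0.9965 to 1.023, and its column medians ran from -0.07 to 0.08. Its scale and direction are thus those of the scanner values.

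From the scanner intensity, log2 was taken and quantile normalised over the 22 arrays, with 3671 control spots left out and marked spots (non-uniform or outlier) set missing. A probe was kept where it carried a RefSeq or GenBank accession and 3 or more arrays had it well above background (28103 probes). Probes were named through RefSeq accessions (27509 of 29150 RefSeq probes were named), and the probe with the highest mean stood for a gene (22383 genes). Of these genes 18375 had a symbol, and each accession without a symbol counted as a gene. All 6 groups were fitted together with lmFit and eBayes (limma 3.58.1, R 4.3.3, Python 3.11.15 with pandas 2.3.3 and matplotlib 3.10.9 for tables and figures), with 9 comparisons of groups and 3 of LPS responses, each adjusted by Benjamini-Hochberg over all genes. "At least N-fold" set the brighter group against the lowest signal well above background. The number of arrays limits the precision, and intensities saturated on no spot of the 12 probes.

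The fit was tried on simulated data for LPS against medium in wt (21277 genes, 200 changed at a time). At a log2 change of 1 it recovered 39 of the changed genes, with 1 false call, and at 2 it recovered 141, with 12. On the measured arrays 42.1% of all genes were called in this comparison, a far larger share than was changed here. Recovery at such a share was not tested.

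The genes and lists were chosen with earlier results of these data known. Of each pathway list the text names the 2 largest rises and 2 largest falls called in wt, and the largest called difference in each other comparison. For likeness it names the 2 genes of highest r. The alternatives were scaling to the 75th percentile, normexp background correction (offset 50, on the median signal), the authors' log2 table, no filter, marked spots kept, the probe with the highest rise, only the groups compared, array weights, the methods' t-test, replicate blocks, a 2-fold minimum and leaving out each array.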

Additional observations from a re-analysis of the deposited data

Results flagged for a closer look

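In 48 groups of 4 arrays (12 probes in the 4 groups of that size), 4 held an array far from the others, measured as the distance to its neighbour divided by the spread from lowest to highest. Chance marks about 1 in 20 groups. For Ripk2, MK2-/- medium replicate 2 lay at 6.13 with the nearest array at 6.59 (0.922). For Aim2 the same array lay at 6.93 with the nearest at 8.37 (0.956). For Nlrc4, wt medium replicate 2 lay at 9.33 with the nearest at 8.88 (0.95), and for Casp1, MK2/3-/- LPS replicate 4 lay at 15.95 with the nearest at 15.75 (0.831). None of the LPS responses of the 10 genes differed between genotypes past the threshold.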

How the results depend on the processing

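Of the 34 called differences of the 10 genes, 0 changed sign under any alternative. Of the 86 that were not called, 41 changed sign at least once, never to a size above 0.305 (log2). Here a value that was not called in either fit was compared by its movement against the replicate SD. The number of the 10 genes called between MK2-/- and wt with LPS (1) became 2 with normexp and with array weights, 0 by the methods' t-test after adjustment, and 1 to 2 on leaving out single arrays (2 without wt LPS replicate 3 or MK2-/- medium replicate 2). Between MK2/3-/- and wt with LPS (2) it became 0 with only the groups compared and by the adjusted t-test, and 1 with a 2-fold minimum. Between MK2/3-/- and MK2-/- with LPS (2) it became 0 by the adjusted t-test and 2 to 3 without single arrays. In medium, MK2-/- against wt (1) gave 3 by the unadjusted t-test, 0 by the adjusted t-test and with the 2-fold minimum, and 1 to 2 without single arrays (2 without wt medium replicate 3). MK2/3-/- against wt (0) gave 1, Nod1, with array weights, and MK2/3-/- against MK2-/- (0) gave 1, also Nod1, by the unadjusted t-test. The cause was not tested. LPS responses called numbered 8 to 9 in wt, 7 to 10 in MK2-/- and 9 to 10 in MK2/3-/- BMDM over all alternatives, and 0 comparisons of responses were called under any; the t-test has no form for these.

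With the replicate number or the letter of the authors' array names as a random block (consensus correlation 0.1175 and 0.1437), 34 of 120 differences were called under each block and no call changed. The deviations of samples of the same number correlated above 0.1 in 7 of 10 pairs (-0.09 to 0.36), as did those of the same letter (-0.09 to 0.42), against 5 of 30 pairs of unlike letters (-0.33 to 0.26). The labels gave the same age in 8 of the 10 pairs by number and in all 10 by letter. Since not every pair was above 0.1, neither was taken to pair the samples, and the higher share is a hint from the data.

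Scaling to the 75th percentile moved the median of all genes with LPS to 0.30, 0.28 and 0.29 in wt, MK2-/- and MK2/3-/- BMDM. The share of calls that were higher went from 44.19% to 60.52%, 39.24% to 53.59% and 42.04% to 54.05% for LPS, from 39.04% to 63.67%, 40.71% to 57.27% and 57.13% to 68.63% between genotypes with LPS (MK2-/- against wt, MK2/3-/- against wt, MK2/3-/- against MK2-/-), and from 64.69% to 84.04%, 74.12% to 90.14% and 70.73% to 89.47% in medium.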
